A study of Mus musculus with 4 samples.

Results

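The Zfp genes are the mouse genes named as a numbered zinc finger protein. Their members here were taken by symbol alone, as every probe whose gene symbol is Zfp followed only by digits. The array carried 201 such genes on 288 probes, and 155 of them had at least 1 probe with a value on all 4 arrays, out of 8676 named genes that met the same condition. Of the other 46 members, 31 had no value on any array and 15 had values on 1 to 3 arrays for their best probe. The arrays held 4 values for 69.4% of member probes and for 58.2% of the other named probes.

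Most proteins of this name carry rows of C2H2 fingers, in which a zinc ion held by cysteines and histidines folds a short loop that contacts DNA. Many also carry a KRAB domain, which recruits the corepressor Trim28 and with it histone methyltransferases, heterochromatin proteins and histone deacetylases. KRAB zinc finger genes lie in tandem clusters, differ between species, and are best known for silencing retroelements and protecting imprinted genes in early embryos. The shared name does not make a single family, since it also holds Zfp36, an RNA-binding protein with fingers of the CCCH type.

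RNA came from RIF-1 cells, a line from a radiation-induced mouse fibrosarcoma, after RNA interference against Bre1a (Rnf20) or Bre1b (Rnf40), whose proteins pair as the ubiquitin ligase of histone H2B. Each knockdown RNA was labelled with Cy5 and hybridised on 1 array against cells without knockdown and on 1 against a mock knockdown of GFP, both controls in Cy3. All values below are log2 ratios of knockdown over control, so that 1 is a doubling of the ratio and 0 is no difference. A mean ± SD is over the 2 arrays of a knockdown (n = 2), and its SD holds the difference between the controls. Separate cultures are not mentioned in the labels, and the spread behind a p-value is that between arrays and may be technical. All 4 arrays had the same dye order, so dye bias and knockdown cannot be told apart for a gene. The labels place the array images of the 2 knockdowns in different months, so image month and knockdown cannot be told apart either. The target genes were low on their own arrays, Rnf20 at -1.60 and -1.35 after Bre1a knockdown and Rnf40 at -1.49 and -1.23 after Bre1b knockdown. Ratios carry no expression level, so the cell type itself could not be checked. Of the fibroblast markers 10 of 12 were measured, against 0 of 10 leukocyte and 0 of 6 endothelial markers and 3 of 7 epithelial ones. Of the 10 fibroblast markers 1 rose and 5 fell for Bre1a and 1 rose and 3 fell for Bre1b. Of the 3 epithelial markers 2 were called lower by their mean in each knockdown. These were Krt8 and Krt18 for Bre1a (means of -1.25 and -1.21) and Krt8 and Epcam for Bre1b (-0.71 and -0.39). After Bre1b knockdown Krt8 was at 0.20 against no knockdown and -1.62 against mock, so it was lower against mock alone. Epcam was at -0.76 against no knockdown and -0.01 against mock. The part of either marker list in the results below was not tested.

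The promoters of 4 members from the top of the rankings described below are shown. Zfp329 comes after Zfp52 in the same ranking, and Zfp324, which heads the lower members after Bre1b knockdown, is not shown. Zfp52 (chr17:21535289-21535588, plus strand) and Zfp329 (chr7:12818811-12819110, minus strand) head the higher members after Bre1b knockdown and Zfp386 (chr12:116047474-116047773, plus strand) those after Bre1a knockdown, when members are ranked by the weaker of their 2 values. Zfp273 (chr13:67813566-67813865, plus strand) heads the lower members after Bre1a knockdown in the same ranking. On single arrays or by the mean, other members were higher or lower than some of these. Sequences are from RefSeq, build GRCm38.p6, from 250 bases before to 50 bases after the first start site listed, written 5′ to 3′ on the strand of the gene. Capitals mark the CCAAT box, the GC box GGGCGG and ACTACA, the start of the Zfp143 binding site, on either strand.
Zfp52: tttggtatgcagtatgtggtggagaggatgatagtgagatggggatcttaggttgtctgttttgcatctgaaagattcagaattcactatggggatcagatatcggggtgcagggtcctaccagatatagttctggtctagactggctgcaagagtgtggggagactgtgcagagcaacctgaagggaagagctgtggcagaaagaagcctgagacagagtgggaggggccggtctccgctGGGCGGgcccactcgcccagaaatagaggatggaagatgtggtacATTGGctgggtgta
Zfp329: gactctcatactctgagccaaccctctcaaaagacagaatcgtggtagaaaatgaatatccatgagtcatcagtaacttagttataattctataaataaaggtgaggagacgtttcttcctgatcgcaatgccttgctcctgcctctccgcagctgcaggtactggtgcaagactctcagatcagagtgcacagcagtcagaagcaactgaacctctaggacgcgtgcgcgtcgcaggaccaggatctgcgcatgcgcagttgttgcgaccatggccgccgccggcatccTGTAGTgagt
Zfp386: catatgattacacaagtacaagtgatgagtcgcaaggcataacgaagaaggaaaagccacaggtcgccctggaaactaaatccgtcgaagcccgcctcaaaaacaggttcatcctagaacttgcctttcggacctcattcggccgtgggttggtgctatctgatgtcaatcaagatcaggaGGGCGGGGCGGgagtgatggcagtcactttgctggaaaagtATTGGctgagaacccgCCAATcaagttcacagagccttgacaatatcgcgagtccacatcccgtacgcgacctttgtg
Zfp273: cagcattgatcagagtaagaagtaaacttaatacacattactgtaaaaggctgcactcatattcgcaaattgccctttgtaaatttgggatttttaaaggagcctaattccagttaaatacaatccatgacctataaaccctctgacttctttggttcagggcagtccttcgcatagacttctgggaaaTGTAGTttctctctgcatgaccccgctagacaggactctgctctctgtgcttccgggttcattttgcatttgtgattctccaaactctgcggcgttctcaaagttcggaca
The Zfp52 promoter held 1 CCAAT box and 1 GC box. The Zfp386 promoter held 2 CCAAT boxes and 2 overlapping GC boxes. In the Zfp329 and Zfp273 promoters ACTACA was present once each, and neither of the other motifs was.

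Promoters were found for 130 of the 155 members. They held a median of 15 CG pairs and 55.7% G and C, against 21 and 61.0% in the 7136 promoters of all measured named genes, and 7 and 52.7% in all 27025 listed promoters. GGGCGG was in 46.2% of member promoters, 66.3% of those of measured genes and 35.9% of all listed. CCAAT was in 51.5%, 39.5% and 37.9% in the same order, and ACTACA in 23.8%, 10.8% and 10.7%. The longer ACTACAATT was in 5 member promoters, or 3.85%, against 0.911% and 0.433%. Among members with and without ACTACA the median ratio was 0.16 and 0.21 after Bre1b knockdown and 0.03 and 0.02 after Bre1a knockdown. For GGGCGG the medians were 0.27 and 0.13 after Bre1b knockdown and 0.05 and 0.00 after Bre1a knockdown. In all 16 motifs were searched on both strands. Besides GGGCGG and CCAAT these were the TATA box TATAAA, the E-box CACGTG, the CREB site TGACGTCA with its part TGACG, the ETS sites CCGGAAGT and CTTCCGG, which overlap on opposite strands, the YY1 site with its part GATGGC, the sequence GCCATTTT, the NRF1 site, the Zbtb33 site, and the Zfp143 forms ACTACA and ACTACAATT with a form longer by 1 base, each of which holds the one before. A match describes the letters of this window and says nothing on binding.

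On the Bre1b arrays the Zfp median lay above that of the other genes, by 0.065 against no knockdown and 0.209 against mock. The members' medians were 0.11 (over no knockdown) and 0.20 (over mock), where the other 8521 genes had 0.05 and -0.01. Member values ran from -1.56 to 0.98 and from -1.78 to 1.57. Above 0 were 63.9% and 65.8% of members, against 54.5% and 49.5% of other genes. The low side was thinner than in other genes, with 6.45% and 12.3% of members below -0.5, against 13.4% and 21.4%.

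On the Bre1a arrays the median of members minus that of other genes was -0.056 against no knockdown and 0.065 against mock. Its sign thus changed with the control, and the gap against mock was as large as that of Bre1b against no knockdown. Members had a median of -0.04 against no knockdown and 0.10 against mock, where other genes had 0.02 and 0.04. Their quartiles ran from -0.26 to 0.16 and from -0.14 to 0.38. Of members 43.9% were above 0 against no knockdown and 61.3% against mock. In the plot of cumulative distributions the member curve lies at its median to the right of the other genes on 3 arrays, and to the left on the array of Bre1a over no knockdown.

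**Figure D1:**
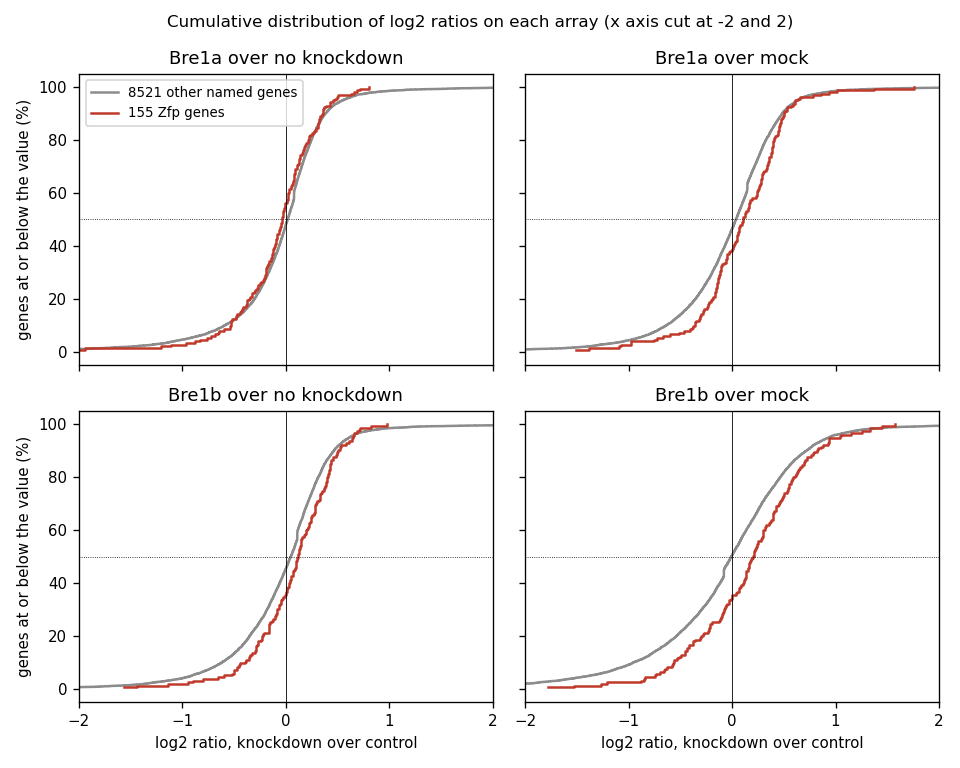
Cumulative share of genes (y axis, %) at or below each log2 ratio (x axis) on each of the 4 arrays, for the 155 Zfp genes in red and 8521 other named genes in grey. The member medians are -0.04, 0.10, 0.11 and 0.20 in the order of the panels, and the gap to the other genes is widest for Bre1b over mock.

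Over the mean of both arrays, members had a median of 0.18 after Bre1b knockdown (1.13-fold) against 0.02 for other genes, and of 0.03 after Bre1a knockdown against 0.03. Limma, fitted over all 8676 genes with a term for the control, called 70 members higher (45.2%) and 26 lower (16.8%) after Bre1b knockdown at an adjusted p of 0.05. Over all genes 32.3% were called higher and 28.2% lower. For Bre1a it called 38 members higher (24.5%) and 22 lower (14.2%), where 21.1% and 19.9% of all genes were called. These calls rest on 1 residual degree of freedom. Without the control term no member was called in either knockdown (limma, lowest adjusted p = 0.062 for Bre1a and 0.0534 for Bre1b), while 35 members (22.6%) and 66 members (42.6%) had an unadjusted p under 0.05 there. Of all genes 24.0% and 39.5% had one, so these counts lie near the background. Of the called members 56 of 60 for Bre1a and 93 of 96 for Bre1b had both arrays on 1 side of 0. A call rests on the mean of these same arrays, so this agreement is partly set by the selection. Over all members 34.2% had both Bre1a arrays above 0 and 29.0% both below, where 37.7% and 31.9% of all genes did. For Bre1b these shares were 56.1% and 26.5% of members, where 41.5% and 37.0% of all genes did. Called members had limma adjusted p from 0.0212 to 0.0467 for Bre1a and from 0.00944 to 0.0481 for Bre1b.

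A count that uses no test takes members with both arrays of a knockdown past 0.5 in 1 direction, which is a change of 1.41-fold. After Bre1b knockdown 15 members were higher by this rule (9.68%) and 7 lower (4.52%), where 6.33% and 10.5% of all genes were. After Bre1a knockdown 2 members were higher (1.29%) and 6 lower (3.87%), where 2.2% and 6.19% of all genes were. No member was past 0.5 in opposite directions on the arrays of a knockdown, where 0.991% of all genes were for Bre1a and 0.53% for Bre1b. Past 1 on both arrays, which is 2-fold, were Zfp273 and Zfp608 for Bre1a and Zfp324 for Bre1b, all of them lower, and 0 members higher. The lower ones are 1.29% of members for Bre1a and 0.645% for Bre1b, where 1.81% and 3.17% of all genes were lower. Of all genes 0.473% and 0.818% were higher by this cut. Across members the 2 arrays correlated with r = 0.792 for Bre1b (rho = 0.822, n = 155) and r = 0.423 for Bre1a (rho = 0.55, n = 155), or 0.515 for Bre1a without Zfp324. Among other genes r was 0.752 and 0.518. Both arrays of a pair carry RNA of 1 knockdown, which they may share.

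**Figure D2:**
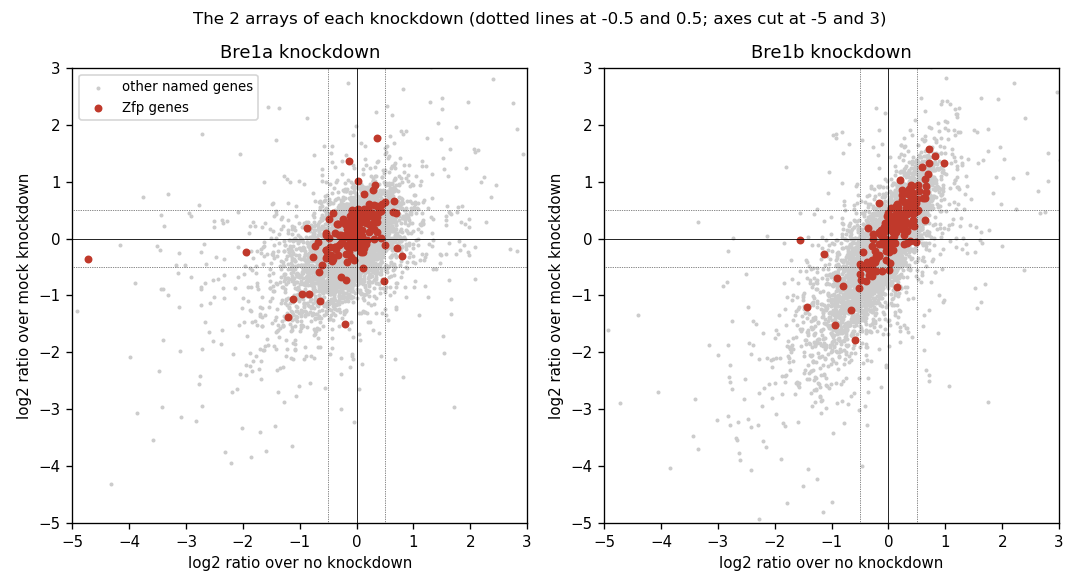
Log2 ratio over mock knockdown (y axis) against log2 ratio over no knockdown (x axis) for each gene, with Zfp genes in red and other named genes in grey. Across the Zfp genes r is 0.792 for Bre1b and 0.423 for Bre1a, where Zfp324 lies alone at -4.73 over no knockdown.

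The highest means after Bre1b knockdown were near 2-fold. Zfp52 was at 0.98 against no knockdown and 1.33 against mock, a mean of 1.16 ± 0.25 (n = 2, limma adjusted p = 0.00944). Zfp329 was at 0.82 against no knockdown and 1.45 against mock (1.14 ± 0.44, limma adjusted p = 0.00944). Zfp37 was at 0.71 against no knockdown and 1.57 against mock (1.14 ± 0.61, limma adjusted p = 0.00944). All 3 were higher on both arrays, and Zfp37 was so on each of its 2 probes, at 0.59 and 0.84 against no knockdown and 1.66 and 1.49 against mock. On the Bre1a arrays the same genes were close to 0 against no knockdown and higher against mock, Zfp52 at -0.07 and 0.38, Zfp329 at 0.12 and 0.79, and Zfp37 at 0.02 and 1.02.

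Zfp871 was high on all 4 arrays, at 0.70 against no knockdown and 1.33 against mock after Bre1b knockdown and at 0.36 against no knockdown and 1.76 against mock after Bre1a knockdown. It rose in both (limma adjusted p = 0.03 for Bre1b). Its 2 probes gave 2.44 and 1.09 on the Bre1a array against mock, so its size there depends on the probe. Zfp397 (0.92 ± 0.32), Zfp146 (0.85 ± 0.29), Zfp781 (0.79 ± 0.19), Zfp428 (0.74 ± 0.11), Zfp51 (0.68 ± 0.05) and Zfp672 (0.67 ± 0.08) rose too after Bre1b knockdown (limma adjusted p from 0.00944 to 0.0109). Of these 6, Zfp51 and Zfp781 also rose after Bre1a knockdown (limma adjusted p = 0.0251 and 0.0257), Zfp51 at 0.36 and 0.39 and Zfp781 at 0.20 and 0.53. Zfp428, Zfp146 and Zfp672 lay between -0.03 and 0.17 on the Bre1a arrays.

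The lowest means after Bre1b knockdown were those of Zfp324 and Zfp273. Zfp324, on 1 probe, was at -1.44 against no knockdown and -1.20 against mock, and at -4.73 and -0.35 on the Bre1a arrays. All 4 of its values were below 0, but the 2 Bre1a arrays lay far apart, and it passed the test in neither knockdown (limma adjusted p = 0.13 for Bre1a and 0.306 for Bre1b). Zfp273 was at -0.94 against no knockdown and -1.53 against mock after Bre1b knockdown (-1.24 ± 0.41, limma adjusted p = 0.0109), with -1.21 and -1.38 after Bre1a knockdown. It was thus low on all 4 arrays, at 42.5% and 40.8% of control.

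Zfp759 fell after Bre1b knockdown at -0.80 and -0.84 (limma adjusted p = 0.0208), as did Zfp13 (-0.70 ± 0.25), Zfp28 (-0.96 ± 0.43), Zfp668 (-0.56 ± 0.09) and Zfp532 (-0.48 ± 0.02), with limma adjusted p from 0.0108 to 0.0348. Zfp810 fell with a wide gap between its arrays, -0.59 and -1.78, (limma adjusted p = 0.00944), and was on both sides of 0 on the Bre1a arrays, 0.48 and -0.75. Zfp652, which works with a corepressor of the CBFA2T family in human cells, was at -0.90 and -0.70 and did not pass (limma adjusted p = 0.113). Zfp704 fell (-0.60 ± 0.18, limma adjusted p = 0.0097), though its probes differed, with -0.23 and -0.72 against no knockdown and -0.09 and -1.38 against mock. In the plot of the Bre1b rankings the Bre1a and Bre1b points of Zfp871 and Zfp37 overlap. Those of Zfp428, Zfp146 and Zfp672 do not. Zfp324, Zfp273, Zfp759, Zfp13, Zfp668 and Zfp532 have all 4 points left of 0.

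**Figure D3:**
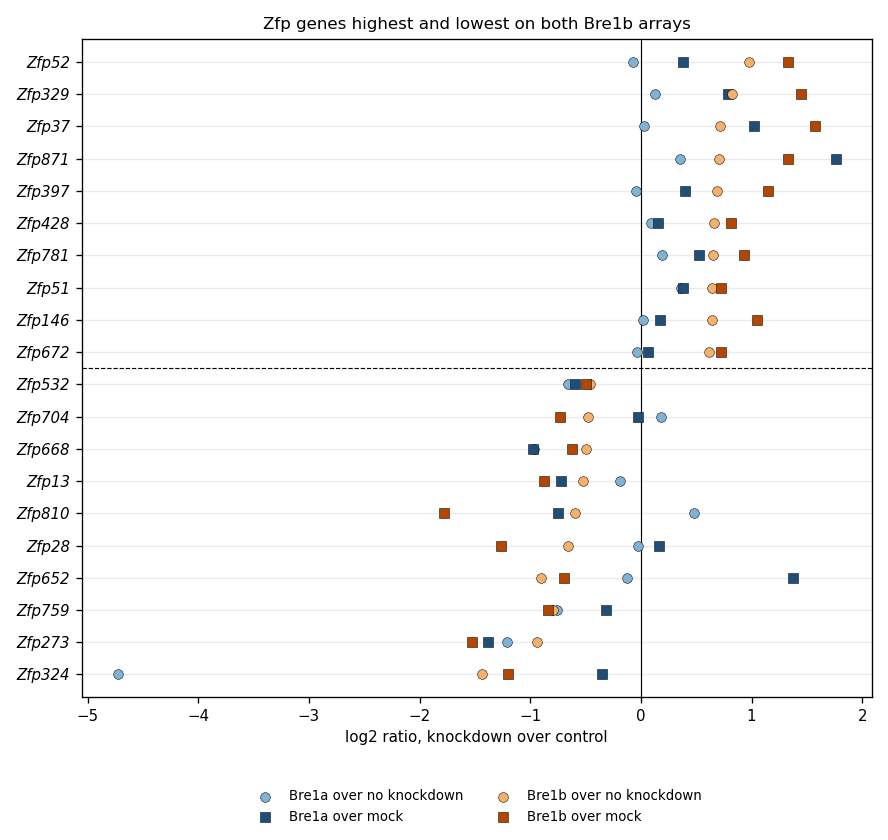
Log2 ratios (x axis) on all 4 arrays for the 10 highest and 10 lowest Zfp genes (rows) by the weaker of their 2 Bre1b values, Bre1a in blue and Bre1b in orange, circles over no knockdown and squares over mock. The dashed line parts the higher from the lower genes, and Zfp52 leads with 0.98 and 1.33.

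After Bre1a knockdown 6 of the 8 members past 0.5 on both arrays were lower, where over all genes 537 were lower and 191 higher. By the weaker value Zfp273 led with -1.21 and -1.38 (-1.29 ± 0.12, limma adjusted p = 0.0228). Zfp608, known in mouse thymocytes as a repressor of the recombination activating genes, was at -1.11 against no knockdown and -1.07 against mock (-1.09 ± 0.03, limma adjusted p = 0.0228). Zfp668, linked in human cells to DNA repair by homologous recombination, was at -0.97 ± 0.00 (limma adjusted p = 0.0212), which is 51.0% of control. Its 4 values were all below 0, and the Bre1b ones, -0.50 and -0.62, were nearer to 0 than the Bre1a ones.

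Zfp958 was at -0.83 and -0.97 after Bre1a knockdown (limma adjusted p = 0.0231) and at 0.38 and -0.05 after Bre1b knockdown. Zfp709 (-0.87 ± 0.32), Zfp532 (-0.63 ± 0.05), Zfp369 (-0.41 ± 0.04) and Zfp46 (-0.39 ± 0.05) fell as well (limma adjusted p from 0.0223 to 0.0432), and both probes of Zfp709 were below 0 on both arrays. The probes of Zfp369 differed, with -0.829 and -0.044 against no knockdown and -0.218 and -0.552 against mock. All of these values were below 0, but the lower probe changed with the array. The SD of 0.04 for Zfp369 is that of the probe averages and does not hold this spread. Zfp74 (-0.53 ± 0.09) did not pass (limma adjusted p = 0.0756). Zfp369, Zfp46 and Zfp958 had a value above 0 on at least 1 Bre1b array.

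The members that rose after Bre1a knockdown stayed under 2-fold, apart from Zfp871. Zfp386 was at 0.65 against no knockdown and 0.66 against mock (0.66 ± 0.00, limma adjusted p = 0.022). Zfp276 was at 0.50 against no knockdown and 0.64 against mock (0.57 ± 0.09, limma adjusted p = 0.022), on probes that gave 0.91 and 0.10 against no knockdown, so that most of its rise lay in 1 probe. Zfp3 (0.57 ± 0.17), Zfp235 (0.55 ± 0.11), Zfp11 (0.53 ± 0.11), Zfp97 (0.43 ± 0.05), Zfp40 (0.46 ± 0.15) and Zfp516 (0.45 ± 0.04) rose (limma adjusted p from 0.0223 to 0.0449). Zfp235, Zfp11, Zfp97 and Zfp516 were above 0.3 on all 4 arrays, while Zfp3 and Zfp40 were below 0 on both Bre1b arrays. Zfp871 had a mean of 1.06 ± 0.99 with its arrays at 0.36 and 1.76 (limma adjusted p = 0.0402).

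**Figure D4:**
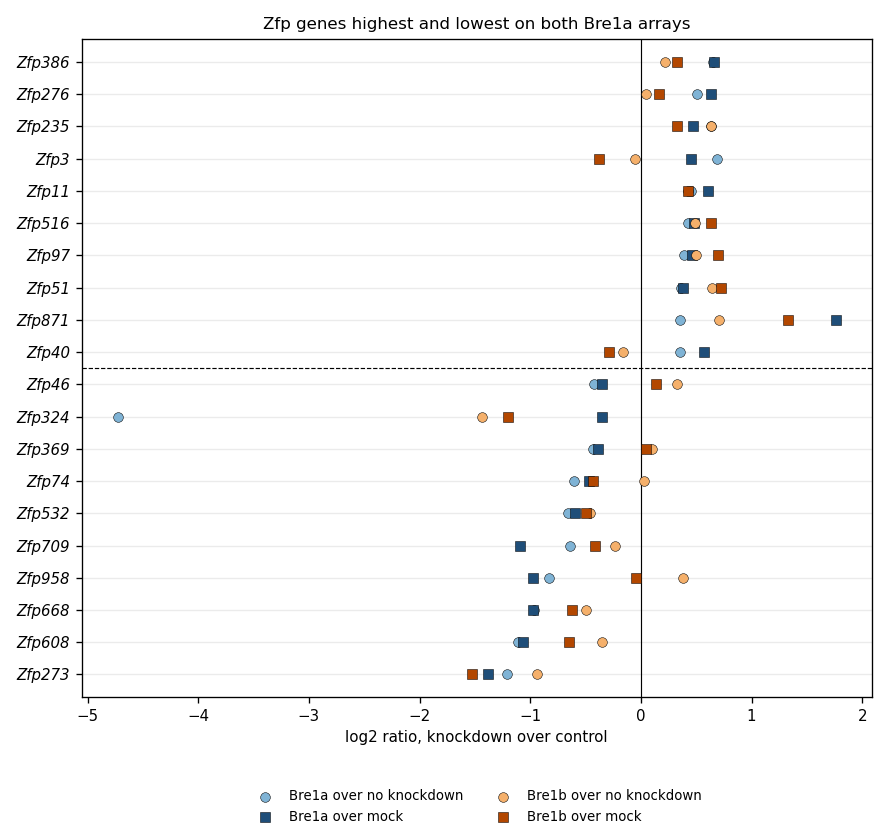
Log2 ratios (x axis) on all 4 arrays for the 10 highest and 10 lowest Zfp genes (rows) by the weaker of their 2 Bre1a values, colours and shapes as for the Bre1b ranking. By that ranking Zfp273, Zfp608 and Zfp668 come first among the lower genes, and Zfp324 has 1 value at -4.73.

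By known role, RNA-binding Zfp36 (tristetraprolin), which promotes decay of mRNAs with AU-rich elements, rose in both knockdowns. It was at 0.29 and 0.86 after Bre1a knockdown (limma adjusted p = 0.0253) and at 0.28 and 0.64 after Bre1b knockdown (limma adjusted p = 0.0185). The values against mock were the higher ones in each case.

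Among factors of promoters and mitosis, Zfp207 (BuGZ), which stabilises the checkpoint protein Bub3 at kinetochores, was at 0.34 and 0.79 and Zfp281, a binder of GC-rich promoters, at 0.24 and 0.68 after Bre1b knockdown, and both rose (limma adjusted p = 0.0121 and 0.0339). Its close relative Zfp148 fell, with -0.29 and -0.37 (limma adjusted p = 0.0147). The probes of Zfp148 differed there, with -0.589 and 0.01 against no knockdown and -0.883 and 0.135 against mock. Its fall thus lay in the lower probe. None of these 3 genes passed for Bre1a (limma adjusted p from 0.146 to 0.346), and Zfp143 had no probe with 4 values.

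Of the silencers of imprinted genes and retroelements, Zfp445, which maintains imprints in mouse embryos, was at 0.58 and 1.26 after Bre1b knockdown (limma adjusted p = 0.00944), and its 2 probes differed by at most 0.12 on those arrays. On the Bre1a arrays it was at -0.24 and 0.34, on both sides of 0. Zfp809, which recognises murine leukaemia viruses in mouse stem cells, was at 0.20 and 0.23 (limma adjusted p = 0.0481), and Zfp932 at 0.14 and 0.22 (limma adjusted p = 0.0603). Zfp932 had a spot at the value that repeats most often on an array.

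Zfp830, a gene that early mouse embryos need, was at -0.48 and 0.01 after Bre1a knockdown (limma adjusted p = 0.0357) and at 0.15 and 0.61 after Bre1b knockdown (limma adjusted p = 0.0126). Zfp365, whose human counterpart is a p53 target, was between -0.10 and 0.25 on all 4 arrays. Zfp296, a reprogramming factor in mouse cells, rose after Bre1b knockdown with 0.42 and 0.69 (limma adjusted p = 0.00992). Of the Z3 complex, Zfp687 fell after Bre1b knockdown (-0.21 and -0.31, limma adjusted p = 0.02) and Zfp592, at 0.30 and 0.29, did not pass (limma adjusted p = 0.0942). Zfp503, a repressor in development, fell (-0.22 and -0.36, limma adjusted p = 0.0176), and Zfp516, an activator of the brown fat gene Ucp1 in mice, rose (0.49 and 0.63, limma adjusted p = 0.0105). The other 5 developmental regulators and 3 of the 6 silencers listed had no probe with 4 values.

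Set directly against each other, the knockdowns differed in 46 members by limma with the control term. A difference of arrays with the same control does not depend on that control's level, nor on a dye bias that is equal on both arrays. Limma called 12 members higher with Bre1a than with Bre1b (7.74%) and 34 lower (21.9%), where 11.7% and 13.2% of all genes were called. The median difference was -0.15 for members and 0.00 for other genes. Without the control term 0 members and 0 genes were called (limma, lowest adjusted p of a member = 0.246), with 30 members (19.4%) at an unadjusted p under 0.05 beside 14.8% of all genes. With the arrays scaled to equal spread 0 members and 0 genes were called as well.

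Bre1a minus Bre1b, Zfp52 differed by -1.05 and -0.95 over the 2 controls (limma adjusted p = 0.0372). Zfp958 differed by -1.21 and -0.93, Zfp445 by -0.83 and -0.92, Zfp397 by -0.74 and -0.74, Zfp329 by -0.70 and -0.66, and Zfp672 by -0.65 and -0.66 (limma adjusted p from 0.0372 to 0.0378). In the other direction Zfp810 was higher with Bre1a by 1.07 and 1.03, Zfp41 by 0.70 and 0.91, Zfp3 by 0.74 and 0.83 and Zfp704 by 0.66 and 0.70 (limma adjusted p from 0.0372 to 0.0389). Zfp652 (1.42 ± 0.91) and Zfp28 (1.03 ± 0.57) did not pass (limma adjusted p = 0.105 and 0.085). For these 2 genes the differences over the 2 controls lay far apart.

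The controls were compared through pairs of arrays of 1 knockdown. Replicate number follows the control on these arrays, so control and replicate cannot be told apart. The ratio of mock over no knockdown had a median of -0.12 for members and -0.01 for other genes. Limma called 2 members higher in mock cells (1.29%) and 13 lower (8.39%), where 7.26% and 6.12% of all genes were called. With the arrays scaled to equal spread, or with a single probe per gene, 0 members and 0 genes were called either way. By the arrays of both knockdowns 89 members were lower in mock cells (57.4%) and 32 higher (20.6%), where 42.2% and 37.8% of all genes were. Zfp810 (1.23 and 1.18) and Zfp78 (0.88 and 0.99) were higher in mock cells (limma adjusted p = 0.0475 each). Zfp37 (-0.99 and -0.86), Zfp715 (-0.62 and -0.83), Zfp945 (-0.61 and -0.78) and Zfp329 (-0.66 and -0.62) were lower (limma adjusted p from 0.0475 to 0.0478). Zfp37 and Zfp329 are also among the highest members after Bre1b knockdown, and their values against no knockdown, 0.71 and 0.82, are the smaller ones. Zfp318, which controls IgD splicing in mouse B cells, had -0.87 and -1.53 and did not pass (limma adjusted p = 0.064). A single probe of Zfp318 stood at -3.26 on the array of Bre1b against no knockdown, where its other probe had 0.14.

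Zfp genes often lie side by side in the genome. Of the 155 members 40 lay in 16 runs of directly adjacent protein-coding genes, which gave 24 pairs of neighbours. Neighbours differed by a median of 0.34 after Bre1a knockdown and 0.38 after Bre1b knockdown, where all pairs of members differed by 0.31 and 0.42. In the run Zfp54, Zfp51, Zfp53 and Zfp52, the Bre1b values against no knockdown were 0.13, 0.65, -0.27 and 0.98, so that Zfp52, first in the Bre1b ranking, lay next to a gene below 0. In the run Zfp397, Zfp35 and Zfp24 all 3 were above 0 on both Bre1b arrays, from 0.30 to 1.15. Fingers of such neighbours are alike in sequence, and whether the probes separate them was not tested.

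**Figure D5:**
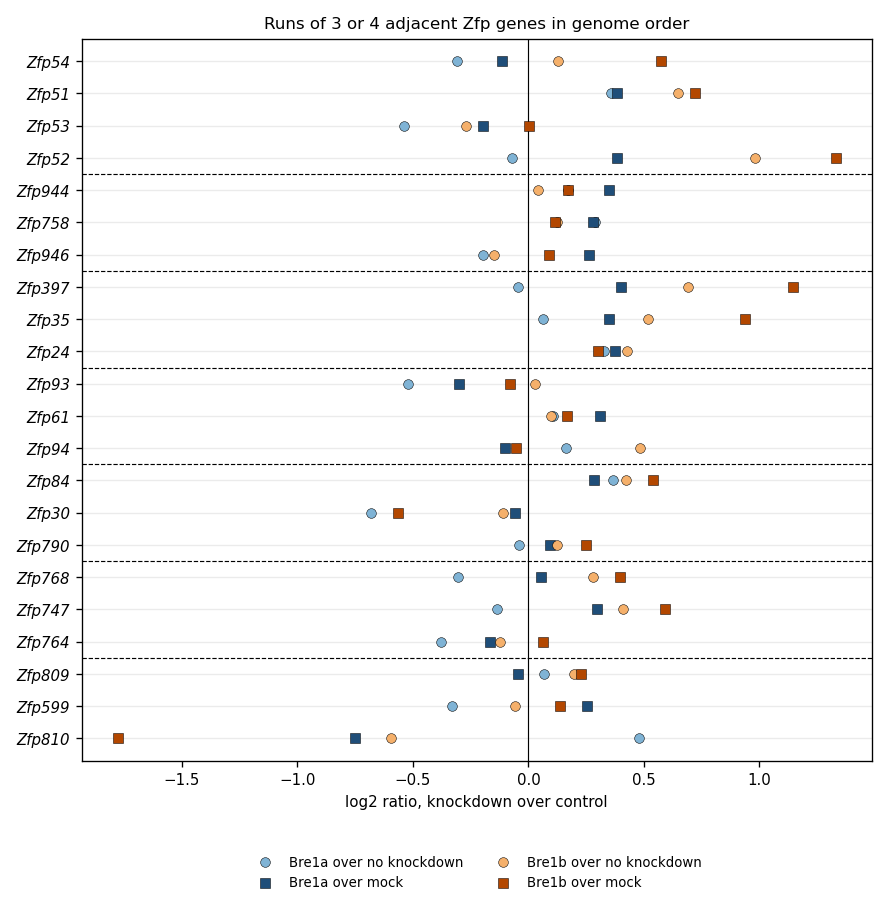
Log2 ratios (x axis) on all 4 arrays for the Zfp genes (rows) that lie in runs of 3 or 4 adjacent protein-coding genes, in genome order, with dashed lines between runs and colours and shapes as for the Bre1b ranking. Zfp52 and Zfp53, direct neighbours, are at 0.98 and -0.27 on the array of Bre1b over no knockdown.

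The partners of KRAB zinc finger proteins rose more often than they fell in both knockdowns. Of 36 listed corepressor and heterochromatin genes 29 were measured, of which 14 rose and 3 fell for Bre1a and 12 rose and 5 fell for Bre1b. Over all genes 21.1% were called higher and 19.9% lower for Bre1a, and 32.3% and 28.2% for Bre1b. The list had medians of 0.13 and 0.25 on the Bre1a arrays and of 0.12 and 0.26 on the Bre1b arrays, against no knockdown and mock. Over the mean of both arrays these are 0.20 and 0.16, beside 0.03 and 0.02 for the other named genes. The heterochromatin protein Cbx1 had the largest rise, 0.57 and 0.99 for Bre1a and 0.62 and 0.91 for Bre1b (limma adjusted p = 0.0217 and 0.00959). Of the other Cbx genes listed, Cbx5 fell for Bre1a (-0.63 and -0.29, limma adjusted p = 0.0242) and Cbx3 for Bre1b (-0.24 and -0.22, limma adjusted p = 0.0264). In the other knockdown Cbx5 and Cbx3 did not pass (limma adjusted p = 0.0788 and 0.107). The scaffold Trim28 was at 0.36 and 0.40 for Bre1b (limma adjusted p = 0.0224) and at 0.08 and 0.32 for Bre1a, where it did not pass (limma adjusted p = 0.0866). Its methyltransferase Setdb1 rose in both, between 0.25 and 0.37 on all 4 arrays (limma adjusted p = 0.0281 and 0.023), and the Setdb1 partner Atf7ip fell in both, between -0.49 and -0.36 (limma adjusted p = 0.0262 and 0.0121). The H3K9 methyltransferase Ehmt2 was at 0.43 and 0.15 for Bre1a and at -0.65 and -0.93 for Bre1b, and the difference between the knockdowns was called (limma adjusted p = 0.0372).

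Other families with fingers had medians on the Bre1b arrays of 0.09 and 0.21 (23 Zbtb genes, 11 called higher and 5 lower), 0.09 and 0.08 (9 Zscan and Zkscan genes, 4 and 1) and 0.01 and 0.10 (11 Klf genes, 5 and 3), against no knockdown and mock. The 3 Zfhx and Zeb genes had -0.14 and -0.16, with 0 higher and 1 lower. The 13 Zdhhc genes, acyltransferases named for a finger that does not bind DNA, had 0.06 and -0.10, with 4 higher and 3 lower. Beside these counts stand the 32.3% of all genes called higher and 28.2% called lower for Bre1b. The difference between Zfp genes and these families was not tested.

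Members without a complete probe were few and were not tested. Both Bre1a arrays, but not all 4 arrays, measured 6 of them, with Zfp108 at -2.78 and -1.49 and Zfp438 at -1.04 and -1.04, while the other 4 had values of opposite sign. Both Bre1b arrays, but not all 4 arrays, measured 4, with Zfp109 at -1.18 and -2.28, Zfp606 at -0.36 and -0.94, Zfp677 at -0.23 and -0.26 and Zfp14 at 0.05 and -1.21.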

How the data were processed

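The deposited table gives, per the file headers, 1 value per spot and array. The values were read as log2 ratios of Cy5 over Cy3 from the deposited numbers themselves. Spots whose distance from the value most repeated on their array was the log2 of 1 whole number over another, both at most 5 (tolerance 0.002), numbered 397 to 598 per array, against 226.5 to 294.5 at shifted positions. The dyes per channel come from the labels. How images were read, corrected for background, normalized and filtered is not given in the sources used here. Values per array numbered 19874 to 22255 of 38784 spots, and the number of arrays limits the precision. Spot brightness was not analysed here.

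Probes were named through GEO's platform annotation. Of 38784 probes 22204 had 1 gene symbol, 0 several and 16580 none, and all 22204 gene IDs matched the GRCm38.p6 gene table with 0 changed symbols. That table was used for names and neighbours only. The 12958 named probes with 4 values were averaged into 8676 genes. Of the 155 members 114 had 1 probe and 41 had several, up to 4. Probes of a member differed by a median of 0.21 to 0.28 per array.

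The tests used R 4.3.3 and limma 3.58.1 with its lmFit and eBayes steps. Each knockdown had its coefficient, and the choice of control had a further one. P-values were two-sided, were adjusted by Benjamini and Hochberg's method over 8676 genes and were held against 0.05. This leaves 1 residual degree of freedom, with 1.57 prior ones. The titles' replicate number follows the control, so this term is also the replicate block. The fit was tested on simulated data. Lists and medians are descriptions with no test.

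The Zfp genes, gene lists and motifs were chosen with earlier results of these data known. Named members are the 10 highest and 10 lowest per knockdown by the weaker of the 2 values, where both have 1 sign, the 6 highest and lowest by the same rule for each other contrast, and members of the listed role groups. Protein features of the members were not used here. Alternatives were no control term, centred or scaled arrays, leaving out spots at the repeated value, 1 probe per gene, robust eBayes, probes complete for 1 knockdown, leaving out each array, and a cut of 1. Each column of values belonged to 1 sample.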

Additional observations from a re-analysis of the deposited data

Results flagged for a closer look

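Zfp3 and Zfp41 were among 18 members that lay on opposite sides of 0 in the 2 knockdowns, on both arrays of each. The same count over all genes was not made, so 18 cannot be read as a trait of the members. For Zfp3 and Zfp41 the difference was itself tested. Zfp3 was at 0.69 and 0.45 for Bre1a and at -0.05 and -0.38 for Bre1b, a difference of 0.79 (limma adjusted p = 0.0372). Zfp41 was at 0.31 and 0.17 for Bre1a and at -0.39 and -0.74 for Bre1b, a difference of 0.81 (limma adjusted p = 0.0389). Each rests on 1 probe, and neither difference passed without the control term (limma adjusted p = 0.272 and 0.258). For Bre1a alone Zfp41 did not pass (limma adjusted p = 0.0716). Zfp593, another of the 18, was at -0.19 and -0.27 for Bre1a and at 0.42 and 0.32 for Bre1b. Its difference of -0.60 was called with the control term (limma adjusted p = 0.0373) and not without it (limma adjusted p = 0.246).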

How the results depend on the processing

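The shift of the Zfp median against other genes kept its sign for Bre1b under each alternative run (0.17 in the fit as reported), while for Bre1a it was 0.00. With 1 Bre1b array left out, the Bre1b shift was 0.065 against no knockdown or 0.209 against mock. Dropping the control term, robust eBayes and centring cannot change this shift, since they keep the means or move all genes alike. The calls depended on the fit. Without the replicate block, that is without the control term, 0 members were called higher and 0 lower for Bre1a, for Bre1b and between the knockdowns, with 35, 66 and 30 at an unadjusted p under 0.05. After scaling arrays to 1 spread, limma called 19 members up and 13 down for Bre1a and 41 and 15 for Bre1b. These 32 and 56 of 155 members stand beside 23.7% and 35.6% of all genes called. Between the knockdowns and between the controls 0 members and 0 genes were called after scaling. With a single probe per gene, 32 members differed between the knockdowns, 6 of them higher with Bre1a, where 16.7% of all genes were called. Between the controls 0 members and 0 genes differed there. With probes complete for 1 knockdown alone and no control term, 0 and 0 were called for Bre1a and 0 and 1 for Bre1b. A cut of 1 in place of 0.5 on both arrays left 0 higher and 2 lower for Bre1a and 0 and 1 for Bre1b. Leaving out each array in turn, without the control term, gave 0 to 0 higher and 0 to 2 lower for Bre1a, 0 to 11 and 0 to 5 for Bre1b, and 0 to 0 and 0 to 1 between the knockdowns, whose median difference against other genes ran from -0.217 to -0.076. A knockdown left with 1 array was assumed to vary like the other. Fewer samples or a spread that holds the control difference are part of how these alternatives were built, and beyond that the cause was not tested. Centring, robust eBayes, leaving out spots at the repeated value and, chosen after seeing the data, leaving out Zfp324 and 5 members with such spots kept each count within 1.5 times.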
